A study of Mus musculus with 4 samples.

Results

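The transcripts described here come from 40 genes of the sarcomere and myofibril, the contractile apparatus of skeletal muscle, with the myosin heavy chains left out. They were chosen by gene symbol for their known protein products, and all 40 were found among the 32285 features of the count tables. The rule used no measured level, but the list was drawn up with earlier results of these data known. The questions were in which order they come on from muscle progenitors to myotubes, in which other cells they are found, and whether they differ between wild-type (WT) and knockout (KO) fetuses. The gene knocked out is *SYISL*, a lncRNA that overlaps an intron of *Synpo2*. No feature carries that name, so the knockout itself was not checked here.

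Leg muscles of mouse fetuses were profiled by single-cell RNA sequencing, with 2 libraries of WT and 2 of KO. The dams were heterozygous, the fetuses were at E18.5, and genotypes were read from fetal tails. Muscle was dissociated with trypsin and DNase I, passed through a strainer, and captured in droplets, where transcripts are tagged with the barcode of their cell and counted by unique molecular identifiers (UMIs). WT and KO fetuses were littermates, and muscle was taken from each fetus separately, per the study. Whether a library held 1 fetus or several, and of which sex, is not given in the sources used here, so the spread between libraries may be technical in part.

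WT replicates 1 and 2 held 110700201 and 119896327 UMIs, and KO replicates 1 and 2 held 109653824 and 126257094. Of 41741 barcodes, 36969 were kept, with a median of 9118 to 11427 UMIs per cell in the 4 libraries. Barcode strings found in more than 1 library numbered 171 in all. Sex-linked transcripts set KO replicate 2 apart: *Xist* stood at 1203 counts per 1000000 UMIs (CPM) there and at or under 0.0533 CPM in the other libraries, whereas 4 Y-linked genes summed to 0.964 CPM there and to between 272 and 284 CPM elsewhere. The part of sex in any KO difference was not tested. Clusters made without the 40 genes and the myosin heavy chains gave 6735 myogenic-like cells, 18694 fibro-adipogenic progenitor (FAP)-like cells and 8 smaller named classes. The 10 myogenic markers summed to between 2002 and 2215 CPM in myogenic-like cells and to between 50.2 and 62.1 CPM in FAP-like cells.

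In the sarcomere, thin filaments of actin, tropomyosin and troponin slide past thick filaments of myosin. Thin filaments are anchored in the Z-disc by alpha-actinin and its partners, thick filaments are cross-linked in the M-band by myomesins, and titin and nebulin act as molecular rulers. Fetal muscle uses a mixture of embryonic or cardiac isoforms, such as *Actc1* and *Tnnt2*, and adult fast isoforms, such as *Acta1* and *Tnnt3*. A level in CPM is the UMIs of a gene per 1000000 UMIs of all genes in the same cells of a library. It counts 3′ ends, is not divided by gene length, and may hold reads from introns of long genes, so levels are compared between cells for 1 gene and not between genes.

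The promoters of *Actc1*, *Acta1* and *Tnnt2* are shown because these genes represent an early actin, a late actin and an early troponin in the order described further on. The sequences are the RefSeq promoters of build GRCm38.p6, from 250 bases before to 50 after the transcript start. Capitals mark a CArG box, the site type bound by serum response factor, in both actins, and every match to the E-box CANNTG, the site type bound by myogenic basic helix-loop-helix factors. In *Tnnt2* they mark the E-boxes and the MCAT motif CATTCC, the site type bound by TEAD factors.
Actc1, chr2:114052826-114053125, minus strand: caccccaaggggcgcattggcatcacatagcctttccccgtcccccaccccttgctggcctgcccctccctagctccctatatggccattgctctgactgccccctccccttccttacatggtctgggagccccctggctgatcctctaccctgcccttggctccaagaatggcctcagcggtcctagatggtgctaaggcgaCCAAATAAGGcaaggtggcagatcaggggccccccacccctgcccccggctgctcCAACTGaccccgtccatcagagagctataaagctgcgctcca
Acta1, chr8:123894726-123895025, minus strand: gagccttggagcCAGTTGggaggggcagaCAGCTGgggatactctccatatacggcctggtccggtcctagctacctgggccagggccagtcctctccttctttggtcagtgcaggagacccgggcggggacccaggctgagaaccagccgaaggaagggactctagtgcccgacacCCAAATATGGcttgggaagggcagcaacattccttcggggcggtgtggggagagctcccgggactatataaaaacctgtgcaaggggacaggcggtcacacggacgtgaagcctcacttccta
Tnnt2, chr1:135836084-135836383, plus strand: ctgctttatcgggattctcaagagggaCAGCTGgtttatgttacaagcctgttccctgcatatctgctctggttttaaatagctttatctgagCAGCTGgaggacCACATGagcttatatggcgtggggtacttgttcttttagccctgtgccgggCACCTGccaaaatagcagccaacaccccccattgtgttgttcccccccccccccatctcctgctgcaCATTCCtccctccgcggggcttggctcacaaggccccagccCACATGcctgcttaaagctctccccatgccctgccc
Promoters were matched for 31 of the 40 members. On both strands, the E-box CAGCTG stood in 15 of the 31, against 16.3% of 32851 mouse promoters of the same length, and the E-box CACCTG in 10, against 20.2%. A CArG box was found in 4, which were *Acta1*, *Actc1*, *Ldb3* and *Myom1*, against 1.63% of all promoters. The MCAT motif was found in 10, against 14.7%, and the MEF2-type motif CTANNNNTAG in 5, against 3.69%. The general E-box CANNTG, which includes the first pair of motifs, was in 27 of the 31 and in 72.3% of all promoters. A match to a short motif is a description of the letters and not of binding.

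Members made up 0.147% to 0.199% of all UMIs in kept cells. Of their 710945 UMIs, 50.9% lay in myogenic-like cells and 32.0% in FAP-like cells, a class far more numerous and not expected to build sarcomeres. The myogenic-like cells fell into 3425 progenitor-like, 1832 cycling and otherwise unstaged, 1389 myoblast-like and 89 myotube-like cells. The 89 myotube-like cells, which numbered 27 and 14 in WT and 17 and 31 in KO, held 14.3% of the members' UMIs. In them the members took 127063 and 128338 CPM in WT, and 105044 and 104632 CPM in KO. In progenitor-like cells they took between 1916 and 2041 CPM, and in myoblast-like cells between 8749 and 9943 CPM.

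Not all myotube-like cells looked like whole cells. Of the 89, 30 had under 1000 CPM of *Malat1*, a nuclear RNA found in nearly all intact cells, with a median of 1246.5 detected genes, a mitochondrial share of 0.0461% and 25.8% of UMIs from members. In the other 59 these medians were 3049 genes, 3.65% and 6.88%. The limit on *Malat1* was chosen after its values were seen. Markers of other classes were also present in the myotube-like cells, with FAP markers at 187 to 1856 CPM and the 5 neutrophil markers at 1472 CPM in WT replicate 1. Their part in the member levels was not tested.

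To order the onset of the members, myogenic-like cells were placed along a pseudotime computed without the members, the myosin heavy chains and cell cycle genes, and cut into 12 bins. The last bin held the final 2% of cells, 135 in number, of which 65.9% were myotube-like. Onset was the first bin in which a member reached 10% of its highest bin. The members fell into an early, a middle and a late group. No member had its onset in bins 3 to 7, which held mostly progenitor-like and cycling cells.

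**Figure D1:**
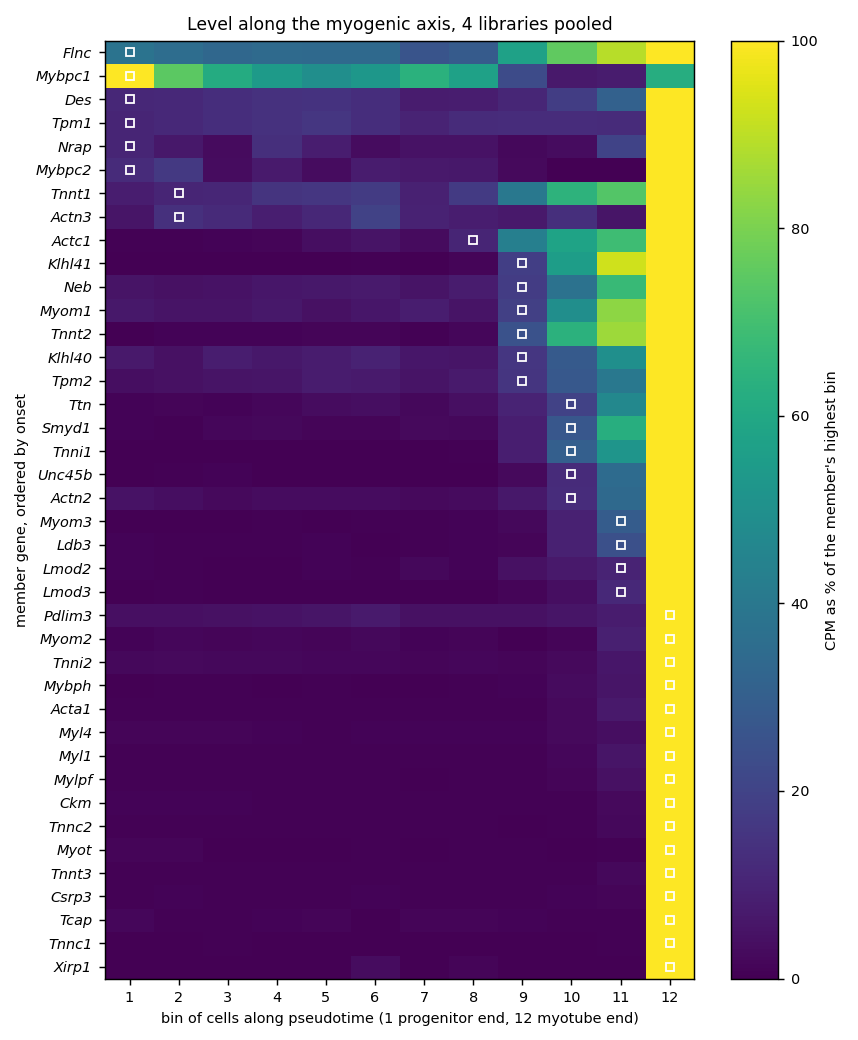
Level of each of the 40 members in 12 bins of myogenic-like cells along pseudotime (horizontal axis, bin 1 progenitor-like, bin 12 mostly myotube-like), as a percentage of that member's highest bin, with the 4 libraries pooled. White squares mark the onset bin; 8 members start in bin 1 or 2, 12 in bins 8 to 10, 4 in bin 11 and 16 in bin 12.

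The 8 members with onset in bin 1 or 2 were *Flnc*, *Mybpc1*, *Des*, *Tpm1*, *Tnnt1*, *Nrap*, *Mybpc2* and *Actn3*. *Flnc* encodes filamin C, an actin cross-linker of the Z-disc, and *Des* encodes desmin, the intermediate filament of muscle. *Nrap*, *Mybpc2* and *Actn3* rested on 56, 13 and 43 UMIs in all progenitor-like cells, and the onset of *Nrap* and *Mybpc2* ranged from bin 1 to bins 11 and 12 between single libraries, so their place at the start is not secure. The mean progenitor-like levels of *Mybpc2* and *Actn3* were 0.445 and 1.52 CPM, under the 0.849 and 1.69 CPM of FAP-like cells. In the others of the 8 the progenitor-like mean was the higher. *Flnc* and *Mybpc1* started in bin 1 in every library. *Tpm1* stood at 396 CPM in bin 1, 466 CPM in bin 11 and 3817 CPM in bin 12, and its onset ranged from bin 1 to bin 4 between single libraries. *Des* was at 59.5 CPM in bin 1 and 530 CPM in bin 12, and *Tnnt1* at 102 CPM in bin 2 and 989 CPM in bin 12. These genes were thus only just over the 10% limit at onset.

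The 12 members with onset in bins 8 to 10 began with *Actc1*, the cardiac alpha-actin of fetal muscle. Myoblast-like cells were 16.9% of bin 8 and 100% of bin 10, but also 20.6% of bin 6. In bin 9 the members were *Klhl41* and *Klhl40*, substrate adaptors that stabilise nebulin and thin filament proteins, *Neb*, *Myom1*, *Tnnt2* and *Tpm2*. In bin 10 they were *Ttn*, *Tnni1*, *Actn2* and the myosin chaperone and methyltransferase genes *Unc45b* and *Smyd1*. Bin 11 added *Myom3*, *Ldb3* and the thin filament nucleators *Lmod2* and *Lmod3*. Within single libraries *Klhl40* reached its limit in bins 3 to 6, and *Neb*, *Myom1* and *Actn2* in bins as early as 4, 1 and 1. The mean progenitor-like levels of these 4 genes were 6.06%, 6.86%, 5.54% and 3.18% of their myotube-like levels. The reason for the earlier bins was not tested.

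The 16 members of bin 12 comprised the fast contractile set *Acta1*, *Mylpf*, *Myl1*, *Tnnc2*, *Tnni2*, *Tnnt3* and *Ckm*, the embryonic light chain *Myl4*, the slow and cardiac troponin C *Tnnc1*, the M-band gene *Myom2*, the thick filament gene *Mybph*, and the Z-disc genes *Tcap*, *Csrp3*, *Myot*, *Pdlim3* and *Xirp1*. In 12 of the 16 the onset was bin 12 in every library. The exceptions were *Pdlim3*, *Myom2*, *Mybph* and *Xirp1*. *Actc1* and *Acta1* illustrate the separation: in the pooled bins 8, 9, 10, 11 and 12, *Actc1* stood at 819, 3448, 4647, 5525 and 7992 CPM, and *Acta1* at 69.8, 68.8, 298, 862 and 12532 CPM. On an axis ordered by a score of stage markers, where 31.9% of the last bin was myotube-like, 39 members started before the last bin, against 24 on pseudotime, and with 50% of the highest bin as the limit 10 did. The split of the middle from the late group thus depends on how the last bin is made.

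A second ordering that needs no axis used the myoblast-like level as a share of the myotube-like level. In 11 members it was at least 20%, from *Flnc* (82.1%) through *Klhl41* (46.3%), *Neb* (42.0%), *Actc1* (41.5%), *Myom1* (41.4%), *Tnnt2* (41.4%), *Tnnt1* (40.9%), *Klhl40* (23.8%), *Ttn* (23.6%) and *Smyd1* (23.3%) to *Mybpc1* (22.5%). In 18 members it was under 5%. Against large barcodes over the upper limits of the cell filter, described further on, the numbers were 14 and 15 members, of which 10 and 15 were the same as against myotube-like cells. The 14 include *Actn3* and *Nrap*, whose means in the large barcodes were only 0.559 and 6.14 CPM, so their shares are not secure.

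Between progenitor-like and myoblast-like cells of the same libraries, 34 of the 40 members could be tested. At an adjusted p under 0.05 (edgeR quasi-likelihood test with the library as a block) 31 were called higher and 1 lower in myoblast-like cells. Of all 11938 genes tested, 33.4% were called higher and 34.0% lower, and the median log2 fold change was 2.23 for the members and -0.01 for all genes. The stages were clusters of the same cells, made from 3000 variable genes, so many genes of this contrast may have taken part in making them, but the members did not. These tests measure the size of the step against the spread between libraries. *Klhl41* rose by a log2 fold change of 7.41 (SE 0.12), the largest of the members, from between 0.766 and 1.16 CPM in progenitor-like cells to 135, 151, 154 and 141 CPM in myoblast-like cells. The stages did not overlap in any library. Here and further on, values for the libraries are listed as WT replicates 1 and 2, then KO replicates 1 and 2.

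Troponin genes split at this step. *Tnnt2*, the cardiac and embryonic troponin T, stood at 13.2, 16.1, 12.1 and 19.3 CPM in progenitor-like cells, and at 648, 692, 832 and 799 CPM in myoblast-like cells (log2 fold change 5.75, SE 0.07). *Tnni1*, the slow troponin I and the neighbour of *Tnnt2* on chromosome 1 (135779434 to 135810989, GRCm38), rose by 6.63 (SE 0.10) and *Tnnt1*, the slow troponin T, by 2.24 (SE 0.04) on the log2 scale. *Tnnt3*, the fast troponin T (chromosome 7, 142498836 to 142516009), stood at 14.7, 11.9, 18.9 and 19.3 CPM in progenitor-like and at 23.4, 21.3, 32.5 and 21.8 CPM in myoblast-like cells, a log2 fold change of 0.73 (SE 0.13). Its neighbour *Tnni2* (142441808 to 142444410), the fast troponin I (0.72, SE 0.07), and the fast troponin C gene *Tnnc2* (0.92, SE 0.13) also rose by less than 1 on the log2 scale.

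*Actc1* rose from 116, 125, 125 and 201 CPM to 3736, 3798, 4119 and 3799 CPM (log2 fold change 4.92, SE 0.08). *Acta1*, the skeletal alpha-actin, rose from 79.4, 48.2, 102 and 72.4 CPM to 309, 281, 415 and 324 CPM (2.28, SE 0.06). Titin, *Ttn*, rose from 51.4, 68.7, 38.1 and 45.6 CPM to 533, 799, 633 and 614 CPM (3.81, SE 0.07), and nebulin, *Neb*, by 2.74 (SE 0.05). Both long genes were therefore well above their progenitor level while the fast troponins and light chains were still low.

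*Mybpc1*, the slow myosin-binding protein C (chromosome 10, 88518279 to 88605152), was the 1 member that fell. It stood at 351, 361, 348 and 302 CPM in progenitor-like, at 303, 298, 298 and 259 CPM in cycling, at 89.5, 112, 95.5 and 96.8 CPM in myoblast-like and at 397, 389, 291 and 672 CPM in myotube-like cells. The fall to myoblast-like cells was -1.65 (SE 0.05) and the rise to myotube-like cells 2.41 (SE 0.19) on the log2 scale. Its promoter was among the 15 with a CAGCTG E-box. *Csrp3* (0.39, SE 0.35) and *Actn3* (0.43, SE 0.38) did not pass the test between progenitor-like and myoblast-like cells, and *Csrp3* was at -0.24 without WT replicate 2.

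**Figure D2:**
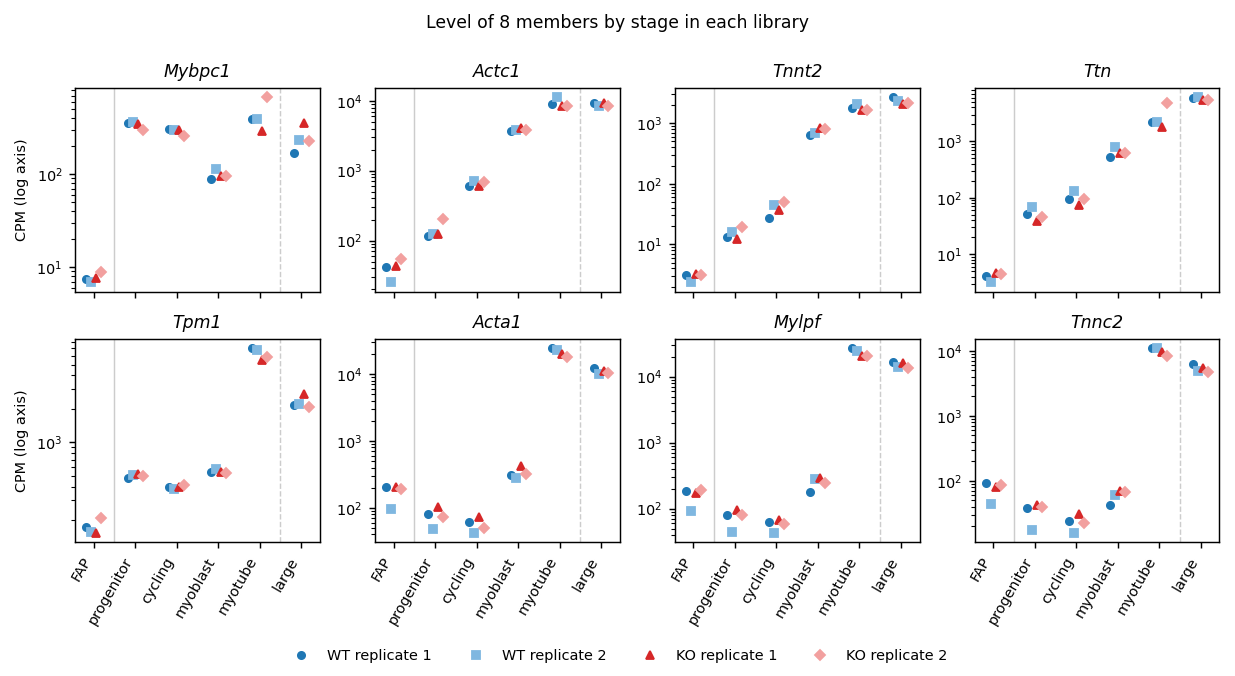
CPM on a log axis of 8 members in FAP-like cells, 4 myogenic stages and the large barcodes over the upper limits of the cell filter, with 1 point for each of the 4 libraries. *Mybpc1* falls from progenitor-like to myoblast-like cells, *Actc1*, *Tnnt2* and *Ttn* climb there, and *Acta1*, *Mylpf* and *Tnnc2* climb mainly at the myotube-like stage, where *Acta1* reaches 17752 to 24693 CPM.

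From myoblast-like to myotube-like cells all 38 members tested rose (*Mybpc2* and *Xirp1* had too few UMIs). Of all 9180 genes tested 14.9% were called higher and 11.5% lower, and the median log2 fold change was 4.06 for the members and -0.11 for all genes. The largest step was in *Tnnc1*, the troponin C of slow and cardiac muscle, from 5.23, 6.39, 4.79 and 1.88 CPM to 2412, 1939, 1278 and 1167 CPM (8.82, SE 0.23). It was followed by *Tcap*, the titin cap of the Z-disc (8.07, SE 0.45), *Csrp3*, a Z-disc LIM protein (7.83, SE 0.25), *Tnnt3* (7.77, SE 0.20), *Tnnc2* (7.69, SE 0.21), *Myot*, which encodes the Z-disc protein myotilin (7.66, SE 0.50), and *Ckm*, the muscle creatine kinase (7.43, SE 0.21).

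*Mylpf*, the fast regulatory light chain, stood at 178, 283, 295 and 249 CPM in myoblast-like and at 27290, 24530, 20658 and 20642 CPM in myotube-like cells (6.83, SE 0.20). *Acta1* rose to 24693, 22843, 19942 and 17752 CPM (6.30, SE 0.19), whereas *Actc1* reached 8965, 11211, 8529 and 8521 CPM (1.55, SE 0.15). *Klhl41* (1.38, SE 0.18), *Myom1* (1.46, SE 0.23), *Neb* (1.49, SE 0.17), *Tnnt1* (1.48, SE 0.16) and *Tnnt2* (1.56, SE 0.15) rose by similar, small steps. *Flnc*, at 188, 194, 183 and 173 CPM in myoblast-like and 261, 130, 189 and 320 CPM in myotube-like cells, had the smallest step (0.59, SE 0.19). Its groups overlapped, and it no longer passed the test without WT replicate 1 (0.49), KO replicate 1 (0.64) or KO replicate 2 (0.34).

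With the 30 *Malat1*-poor cells left out, 36 of 36 members tested rose, with a median of 3.67, where 912 of all 9269 genes were called higher. With the large barcodes in place of myotube-like cells 36 of 36 rose, with a median of 3.58, where 2235 of all 9888 genes were called higher. Both alternatives were chosen after seeing the data. The large barcodes were also selected for at least 2% of their UMIs from members, against 0.948% of UMIs in myoblast-like cells. A rise of the members as a set was thus largely fixed by that selection and is a description. The counts of members called in the 2 stage steps were otherwise between 29 and 32 and between 37 and 38 higher when 1 library was left out.

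Other genes of the sarcomere were examined from a list of 35. From progenitor-like to myoblast-like cells 18 could be tested, of which 9 were called higher and 5 lower, with a median of 0.23. *Trim55*, which encodes a titin-associated ubiquitin ligase, was at 7.04 (SE 0.21) and *Fhl1*, a LIM domain gene, at -1.65 (SE 0.09). From myoblast-like to myotube-like cells 21 of 23 were called higher, with a median of 3.35, among them the essential light chain *Myl3* (8.86, SE 0.63) and the calcineurin-binding *Myoz2* (8.64, SE 0.25). These genes, unlike the members, took part in the clustering. Of 19 regulators of sarcomere genes, 17 were tested in the first step, with 9 higher and 4 lower, and 16 in the second, with 4 higher and 3 lower. *Mef2c*, a transcription factor of muscle, was called higher in both (3.23, SE 0.14, and 3.55, SE 0.17), and *Tead4* in both (4.68, SE 0.15, and 0.97, SE 0.26). Both myosin heavy chains that could be tested, *Myh3* and *Myh8*, rose in each step.

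A large part of the members' UMIs lay in barcodes outside the cell filter, which kept 72.7% and 61.2% of the deposited member UMIs of WT and 57.0% and 63.8% of those of KO. Barcodes with at least 2% of their UMIs from members formed 2 sets there that are described here. A further 12, 7, 8 and 15 such barcodes were left out for their mitochondrial share and are not described. Large barcodes over the upper limits of 6000 genes or 25000 UMIs numbered 59 (7, 14, 17 and 21), with a median of 43922 UMIs and 6384 genes, 7.37% of UMIs from members and 7477 CPM of *Malat1*. Small barcodes under the lower limits of 1000 genes or 1000 UMIs numbered 249, of which 204 (48, 46, 50 and 60) had little or no *Malat1*. These had a median of 1169.5 UMIs and 475 genes and 27.7% of UMIs from members, and 171 of them had no *Malat1* UMI. Barcodes of either kind were selected on members' share, so the share itself is a description.

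The make-up of that share differed between the 2 kinds. In a comparison added after seeing the data, 37 members were tested with edgeR and the library as a block. Of these 13 were called higher and 20 lower in the large barcodes, against 44.9% and 27.1% of all 2624 genes tested, for which the median log2 fold change was 0.61, toward the large barcodes. *Ttn* stood at 5938, 6058, 5389 and 5354 CPM in large and at 226, 102, 114 and 163 CPM in small barcodes (4.68, SE 0.19). *Flnc* (4.18, SE 0.45), *Neb* (3.25, SE 0.23), *Myom3* (2.13, SE 0.68), *Tnnt2* (2.07, SE 0.20) and *Tnnc1* (1.89, SE 0.21) were higher in the large barcodes too.

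*Actn3*, the fast fibre alpha-actinin, stood at 271, 102, 326 and 97.6 CPM in the small barcodes and gave 2 UMIs over all large ones. *Tcap* had 38 UMIs in the large barcodes, or 24.6, 5.25, 19.4 and 1.85 CPM, against 737, 271, 930 and 423 CPM (-6.25, SE 0.29). *Ckm* (-3.73, SE 0.13), *Tpm1* (-3.71, SE 0.14), *Csrp3* (-3.69, SE 0.25), *Tnnt3* (-3.53, SE 0.13), *Myl1* (-3.16, SE 0.14), *Tnnc2* (-3.06, SE 0.13), *Acta1* (-3.03, SE 0.14) and *Tnni2* (-3.00, SE 0.13) followed. *Acta1* alone took 67291, 57177, 71051 and 54794 CPM in the small barcodes and 12140, 10088, 11144 and 10318 CPM in the large ones. No library of one kind overlapped the other kind in *Ttn*, *Actn3*, *Tcap* or *Acta1*.

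**Figure D3:**
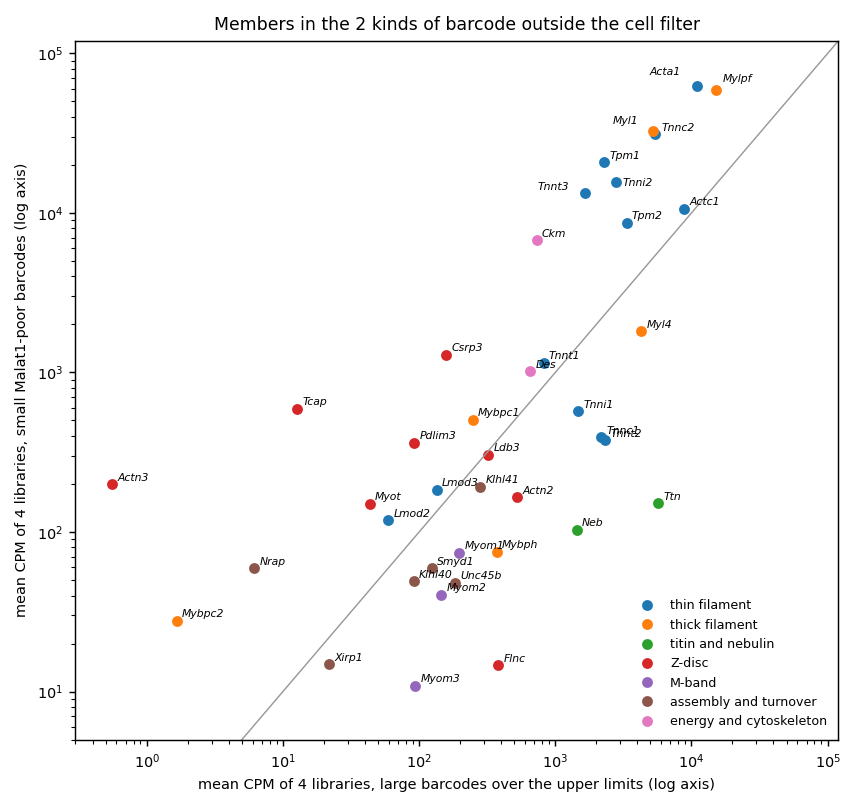
Mean CPM over 4 libraries of each member in the large barcodes over the upper limits (horizontal log axis) against the small *Malat1*-poor barcodes (vertical log axis), coloured by role, with a line of equal level. *Ttn*, *Neb*, *Flnc* and *Tnnt2* lie below the line, and *Actn3*, *Tcap*, *Acta1*, *Mylpf* and the fast troponins lie above it.

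Ratios between paired isoforms do not depend on the share of members. Per 100 UMIs of *Tnnt3* there were 135.4 of *Tnnt2* in the large barcodes and 3.04 in the small ones, and the 4 libraries ranged from 125 to 160 and from 1.69 to 4.60. Per 100 UMIs of *Tnnc2* there were 40.0 and 1.36 of *Tnnc1*, and per 100 of *Myl1* there were 76.3 and 5.62 of *Myl4*. By contrast *Mylpf* per 100 *Acta1* was 139 in the large and 95.9 in the small barcodes. Embryonic and slow isoforms thus stood higher relative to fast ones in the large barcodes in every library.

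FAP-like cells served as the reference level of a class that should lack sarcomeres. It is not a measure of free RNA, since the members were uneven among these cells: 187 cells, 1% of the class, held 23.4% of its member UMIs. At a clustering resolution of 1, a cluster of 346 cells named FAP-like had *Tnnc2*, *Acta1*, *Myl1*, *Ckm* and *Mylpf* among its leading genes. Over all FAP-like cells of the main clustering the members took 1226, 799, 1151 and 1265 CPM. *Acta1* stood at 204, 94.4, 204 and 189 CPM and *Mylpf* at 188, 91.0, 171 and 191 CPM, with WT replicate 2 lowest for both. A *Mylpf* UMI was found in 14.98% of FAP-like cells after thinning to 2000 UMIs per cell (36.3% unthinned), against 10.9% (33.8%) of progenitor-like cells. Thinning left out 39 FAP-like and 11 progenitor-like cells, and the median depth was 9110.5 to 11961 and 7509 to 9768.5 UMIs per cell. The isoform ratios of FAP-like cells were 8.93 *Tnnt2* per 100 *Tnnt3* and 92.8 *Mylpf* per 100 *Acta1*, and those of macrophage-like cells 9.73 and 96.8.

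Progenitor-like cells were set against that level. Of 39 members tested 16 were higher and 13 lower in progenitor-like than in FAP-like cells, against 35.4% and 40.4% of all 16732 genes tested, so neither share was far from that of all genes. The largest differences were in *Mybpc1*, at between 302 and 361 CPM against 7.49, 6.86, 7.56 and 8.95 CPM (5.62, SE 0.08), *Neb* (3.97, SE 0.08), *Ttn* (3.76, SE 0.16), *Tnnt1* (3.35, SE 0.07) and *Tnnt2* (2.51, SE 0.15). *Des* (2.27, SE 0.06), *Actn2* (2.25, SE 0.16), *Nrap* (2.14, SE 0.32), *Actc1* (1.95, SE 0.10), *Tpm1* (1.71, SE 0.06), *Klhl40* (1.65, SE 0.16) and *Tpm2* (1.31, SE 0.06) were also above it. A *Mybpc1* UMI was found in 43.9% ± 2.74 of progenitor-like cells thinned to 2000 UMIs and in 1.23% ± 0.341 of FAP-like cells (SD, n = 4).

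The late fast genes were at or below the FAP-like level. *Acta1* was at -1.03 (SE 0.06), *Tnnc2* at -0.98 (SE 0.06), *Myl1* at -0.95 (SE 0.08), *Mylpf* at -0.94 (SE 0.06), *Tnnt3* at -0.85 (SE 0.09) and *Ckm* at -0.80 (SE 0.10). *Flnc*, which started in bin 1, was at 96.6, 88.0, 97.8 and 90.9 CPM in progenitor-like and at 90.9, 89.6, 92.2 and 94.3 CPM in FAP-like cells (0.18, SE 0.04), and the values overlapped. *Tnni2* was the fast gene above the FAP-like level (0.75, SE 0.12), at 53.4, 68.1, 83.2 and 79.0 CPM against 56.0, 31.7, 47.8 and 55.3 CPM, where WT replicate 1 was lower in progenitor-like cells. FAP markers summed to between 599 and 674 CPM in progenitor-like cells.

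**Figure D4:**
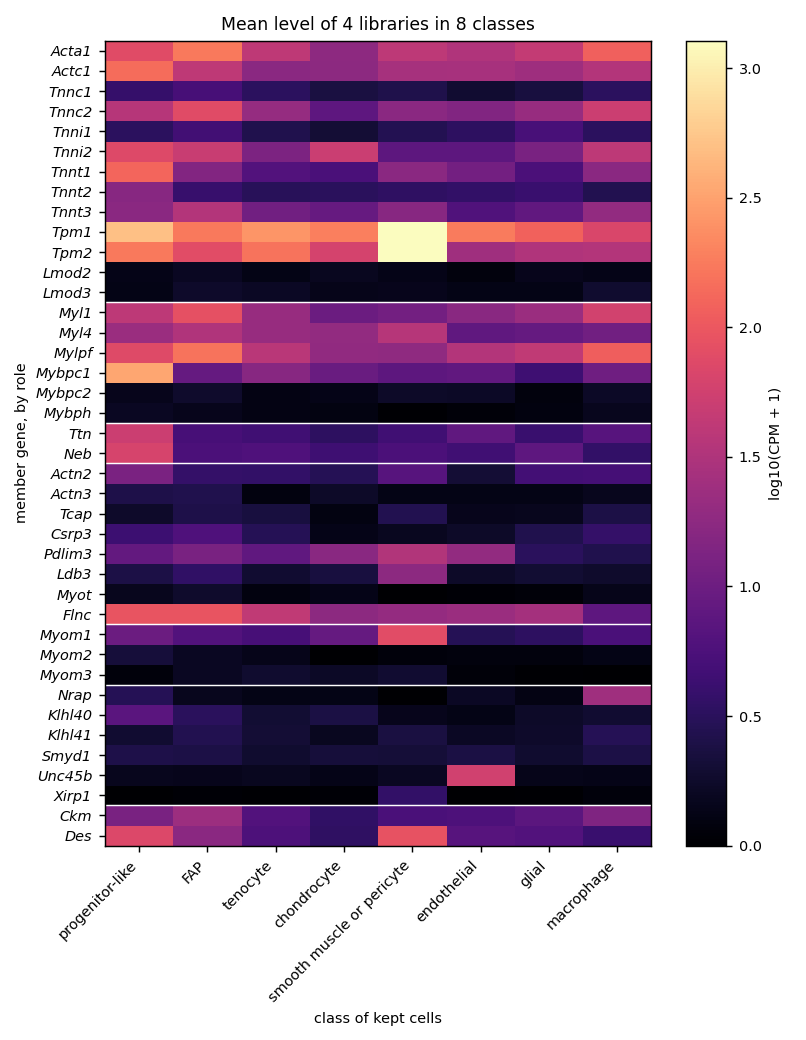
Mean level over 4 libraries of the 40 members, as log10(CPM + 1), in progenitor-like cells and 7 other classes, with members grouped by role and roles divided by white lines. *Tpm1*, *Tpm2*, *Myom1* and *Des* are high in smooth muscle or pericyte-like cells, *Unc45b* in endothelial-like cells and *Nrap* in macrophage-like cells.

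The 1746 smooth muscle or pericyte-like cells held 7.8% of the members' UMIs. Of 38 members tested against FAP-like cells 10 were higher and 16 lower, against 30.5% and 33.5% of all 16874 genes. *Tpm2*, beta-tropomyosin, stood at 1413, 1224, 1283 and 1162 CPM against 84.5, 68.3, 73.9 and 87.3 CPM (4.04, SE 0.06), and *Tpm1*, alpha-tropomyosin, at 1338, 1278, 1270 and 1210 CPM against 173, 157, 153 and 209 CPM (2.92, SE 0.07). Tropomyosins have smooth muscle isoforms from the same genes, which 3′ counts do not separate.

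*Myom1*, which encodes the M-band protein myomesin 1, stood at 79.6, 69.2, 81.2 and 80.02 CPM in these cells, above the 57.2, 68.1, 67.8 and 66.2 CPM of myoblast-like cells in each library, and at 5.14, 5.37, 5.43 and 5.19 CPM in FAP-like cells (3.90, SE 0.07). *Des* (2.48, SE 0.08), at 87.2, 106, 86.1 and 78.9 CPM, the Z-disc genes *Ldb3* (2.74, SE 0.19) and *Pdlim3* (1.54, SE 0.09), and *Actn2* (1.05, SE 0.24) were higher too. *Xirp1*, an actin-binding gene of the Z-disc and of junctions, had the largest fold (5.33, SE 0.43) on 50 UMIs, with 3.27, 1.65, 1.63 and 4.26 CPM. These cells carried 57.5% of all *Xirp1*, 32.5% of *Tpm2*, 30.6% of *Myom1* and 20.3% of *Tpm1* UMIs in kept cells. The 10 myogenic markers summed to between 17.4 and 66.6 CPM in them, against 50.2 to 62.1 CPM in FAP-like cells, and *Acta1*, *Mylpf* and *Tnnc2* were below the FAP-like level (-2.11, -3.18 and -2.22).

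Single members stood out in other classes, in comparisons added and genes chosen after seeing the data. *Unc45b*, the myosin chaperone of striated muscle (chromosome 11, 82910550 to 82943403), was at 70.9, 52.1, 59.2 and 40.5 CPM in endothelial-like cells, on 822 UMIs, and at 0.505, 0.353, 0.446 and 0.457 CPM in FAP-like cells (6.99, SE 0.14). The endothelial-like level lay above the 17.8, 20.8, 24.9 and 20.2 CPM of myoblast-like cells in every library, and the class held 56.3% of all *Unc45b* UMIs in kept cells. Only *Unc45b* and *Pdlim3* (0.74) among 38 members were higher in endothelial-like cells, where 24 were lower, against 32.3% and 37.4% of all genes. Myogenic markers summed to 23.4 to 68.0 CPM there.

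*Nrap*, a nebulin-related anchoring protein gene of the junctions where myofibrils end (chromosome 19, 56320035 to 56390037), was at 24.2, 24.3, 16.1 and 30.4 CPM in macrophage-like cells, on 290 UMIs, against 0.316, 0.490, 0.407 and 0.712 CPM in FAP-like cells (5.72, SE 0.23). That is 51.1% of all *Nrap* UMIs in kept cells. *Nrap* and *Tnnt1* (0.33) were the members called higher there, with 18 of 39 lower, against 31.8% and 40.3% of all genes, and 1 to 5 members were called higher when 1 library was left out. In chondrocyte-like cells 1 member, *Myom1* (0.54), was higher and 20 of 39 lower, against 26.4% and 28.4% of all genes. *Tnni2* there was at 60.2, 53.7, 35.5 and 50.4 CPM, not separable from FAP-like cells (0.17), whereas *Acta1* was at 20.1, 9.18, 20.9 and 18.6 CPM and *Tnnc2* at 12.1, 4.66, 4.18 and 6.47 CPM, well below them.

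In tenocyte-like cells *Tpm2* (1.08), *Mybpc1* (1.07) and *Tpm1* (0.71) were higher and 20 of 39 members lower, against 25.9% of all genes in each direction. *Mybpc1* was at 20.3, 13.7, 10.5 and 16.5 CPM there, and myogenic markers summed to between 214 and 310 CPM, above the FAP-like cells. In glial-like cells *Neb* (0.56) was higher and 28 of 39 lower, against 33.1% and 36.0%, with myogenic markers at 127 to 159 CPM. The part of these markers in the member levels was not tested.

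The KO was then compared with the WT. In all myogenic-like cells 38 members were tested and none was called, as none of the 14715 genes tested was (0% called, smallest adjusted p = 0.967 by edgeR, with 308 genes up and 247 down at an unadjusted p under 0.05, and none called by DESeq2). Of the members 31 were nominally higher and 7 lower in KO, with a median log2 fold change of 0.21, against 50.5% of all genes nominally higher and a median of 0.002. An unadjusted p under 0.05 was reached by 6 members higher in KO and 1 lower. The members' median was -0.02 without KO replicate 2 and 0.38 without KO replicate 1. It was 0.07 without the 89 myotube-like cells, with 24 of 37 members nominally higher, and 0.36 under a looser cell filter, with 36 of 40. In sum the members took 4897 and 4942 CPM in the WT and 4825 and 5812 CPM in the KO libraries (exact permutation test, p = 1).

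The 6 members with the smallest p were *Tnni1*, *Actn3*, *Tnnt2*, *Tnni2*, *Tnnt3* and *Actn2*, each with an edgeR adjusted p = 0.967. With the replicate number as a block *Tnni1* and *Tnnt2* were called, as described at the end. *Tnni1* stood at 51.1 and 62.3 CPM in WT and 69.6 and 78.5 CPM in KO, or 56.7 ± 7.97 against 74.1 ± 6.34 CPM (SD, n = 2), a log2 fold change of 0.43 (SE 0.11). *Tnnt2* stood at 169 and 204 CPM in WT and 208 and 232 CPM in KO (0.29, SE 0.10). In both genes the KO libraries lay above the WT libraries.

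*Tnni2* was at 133 and 125 CPM in WT and 135 and 158 CPM in KO (0.23, SE 0.10). *Actn3*, on 118 UMIs, was at 2.65 and 1.97 CPM in WT and 1.36 and 0.964 CPM in KO (-0.95, SE 0.33), with no overlap. *Tnnt3*, at 68.9 and 50.9 against 65.0 and 94.7 CPM (0.46, SE 0.19), and *Actn2*, at 21.2 and 23.6 against 23.5 and 33.1 CPM (0.38, SE 0.16), overlapped between the genotypes. In both of these genes the highest value was in KO replicate 2.

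**Figure D5:**
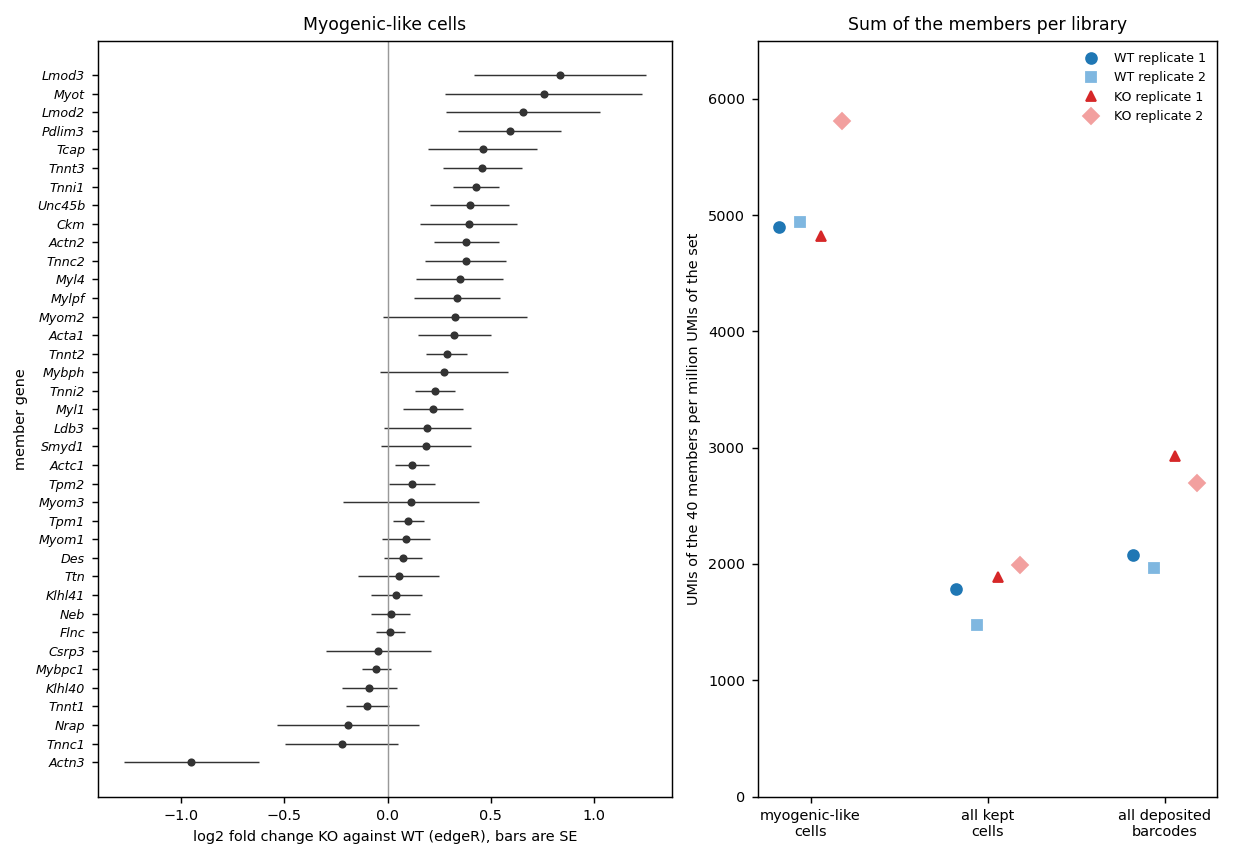
Left, log2 fold change of KO against WT in myogenic-like cells for the 38 members tested, with bars of 1 standard error; none passed the test. Right, summed CPM of the 40 members in myogenic-like cells, all kept cells and all deposited barcodes, with 1 point per library. Both KO libraries lie above both WT libraries in the last 2 sets and not in the first. The share of myogenic-like cells among kept cells was also higher in both KO libraries.

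By stage no member was called in progenitor-like (29 tested, median 0.15), cycling (27, 0.06), myoblast-like (33, 0.09) or myotube-like cells (36, -0.21), where 0% of 12758, 12370, 10843 and 2842 genes were called by edgeR. An unadjusted p under 0.05 was reached by 247 genes up and 263 down in progenitor-like, 247 and 233 in cycling, 249 and 281 in myoblast-like and 104 and 42 in myotube-like cells. *Tnni1* in myoblast-like cells came closest, at 160 and 189 CPM in WT and 267 and 230 CPM in KO (0.54, SE 0.10, adjusted p = 0.518). In other settings its adjusted p ranged from 3.69e-05 to 0.998: it was called without WT replicate 2, without KO replicate 1 and without KO replicate 2, and not without WT replicate 1 (0.117) or with stages set from UMIs of single genes (0.998).

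The median changed sign in cycling cells without WT replicate 1 or KO replicate 1, and in myoblast-like cells without WT replicate 1 or with stages set from UMIs of single genes. In myotube-like cells 24 of 36 members were nominally lower in KO, and 16 of 35 with stages set from single genes, where the median was 0.06. The *Malat1*-poor cells, which have more member UMIs, were 7 of 27 and 8 of 14 in the WT libraries and 7 of 17 and 8 of 31 in the KO libraries, and their part in this was not tested. The test of whether the KO difference changed from progenitor-like to myoblast-like cells called 0% of 12630 genes (237 with a larger and 279 with a smaller KO effect at an unadjusted p under 0.05) and none of 36 members. *Ttn* had the smallest p among them (0.42, adjusted p = 0.635).

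Outside the muscle lineage no member was called between KO and WT in the 8 classes tested. In FAP-like cells 34 of 39 members were nominally higher in KO, with a median of 0.21, and 0% of 18367 genes were called (unadjusted p under 0.05 in 267 up and 276 down). WT replicate 2 held the lowest FAP-like level of *Acta1* and *Mylpf*. Without it 22 of 39 members were nominally higher and the median was 0.03, and without WT replicate 1 the numbers were 38 of 39 and 0.31. The median was 0.35 without KO replicate 1 and 0.11 without KO replicate 2. In tenocyte-, chondrocyte-, glial-, macrophage- and mast-like cells 0% of genes were called too, with 148 to 341 genes up and 138 to 263 down at an unadjusted p under 0.05. In smooth muscle or pericyte-like cells 0.135% and in endothelial-like cells 0.0170% of genes were called, none of them members. Nominally higher in KO were 18 of 20 members in endothelial-like cells (median log2 fold change 0.65, and 0.41 to 1.03 with 1 library left out) and 20 of 22 in glial-like cells (0.54, but 0.14 and 12 of 22 without KO replicate 1). In macrophage-like (0.24), smooth muscle or pericyte-like (0.19) and chondrocyte-like cells (0.14) the median changed sign without WT replicate 2 (-0.14, -0.04 and -0.12), and in chondrocyte-like cells also without KO replicate 2 (-0.05). In tenocyte-like cells it was 0.05, but 0.71 without WT replicate 1 and 0.65 without KO replicate 2. The share of all genes nominally higher in KO is given here only for all myogenic-like cells. Member counts by direction in other sets of cells are therefore a description and not a result about the members.

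The mast-like class was small and mixed. All 11 members tested were nominally higher in KO (median 1.96), but the members took 223 and 259 CPM in WT and 335 and 1358 CPM in KO, so KO replicate 2 stood apart, and without it the median over 10 members was 0.43. FAP markers summed to 586 and 1226 CPM in WT and 2074 and 4258 CPM in KO. Of 495 cells of the class 226 were in KO replicate 2. At a resolution of 1 the mast-like cluster had 286 cells, with 82 in that library, and a separate unnamed cluster of 210, led by *Vpreb3* and *Igkc*, had 144 there. The part of these cells in the mast-like difference was not tested.

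In endothelial-like cells *Actc1* stood at 11.8 and 4.49 CPM in WT and 35.8 and 55.9 CPM in KO (2.47, SE 0.34, adjusted p = 0.0638). Its adjusted p was 0.142 with called doublets removed and between 1.96e-29 and 0.0140 with any 1 library left out. *Acta1* was at 25.9 and 8.99 CPM in WT and 42.5 and 47.3 CPM in KO, and *Ttn* at 2.59 and 1.498 against 10.9 and 13.2 CPM (2.54, adjusted p = 0.107). The myogenic markers moved with them, at 27.9 and 23.4 CPM in WT and 54.3 and 68.0 CPM in KO, and their part in the difference was not tested.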

How the data were processed

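Leg muscle cells of 2 WT and 2 KO libraries were prepared by the authors with 10x Genomics 3′ v3 chemistry. Per the submitters' processing notes, Cell Ranger 7.2.0 was used with the mouse genome mm10. The deposited values are raw UMI counts per gene and barcode, not normalised. Whether intronic reads were counted is not given in the sources used here. The members and gene lists were chosen with earlier results of these data known.

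The cell filter followed the study's methods, with limits of 1000 and 6000 on detected genes and 1000 and 25000 on UMIs and a mitochondrial share under 8%. Counts were scaled to 10000 per cell and clustered (Leiden, resolution 0.3, 3000 variable genes, 30 principal components, 20 neighbours) in scanpy 1.11.5, with igraph 0.11.9 and scikit-learn 1.9.0, without the members and myosin heavy chains, 51 genes in all. The study's Harmony correction was not used. Clusters other than FAP-like ones were named from at least 3 markers at 2-fold, and stages at 1.5-fold. The FAP-like name did not need that fold, and its markers were counted from a lower limit, 0.25 of the highest cluster. FAP-like clusters of 8584, 1589, 5789 and 2732 cells had 2, 1, 6 and 0 FAP markers at 2-fold. At the lower limit they had 8, 7, 8 and 8. These rules were set after the data were seen, so shares may differ from the study's for that reason. Doublets were limited by the upper bounds alone, and Scrublet calls (135 to 251 per library) were removed as an alternative.

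For each class the cells of a library were added up to 1 profile. These sums entered the quasi-likelihood test of edgeR 4.0.16 in R 4.3.3, after TMM scaling and filterByExpr. The p-values were adjusted by the Benjamini-Hochberg method across every gene in the fit, and 0.05 was the limit for a call. The library was the replicate, and cell sets of the same libraries were compared with the library as a block. Stages with fewer than 10 cells and other classes with fewer than 50 cells in any library were not tested. SE values were obtained from the F statistic. The fits were tested on simulated data. Sums were compared by exact two-sided permutation tests, for which 4 libraries allow no p under 0.333. Alternatives were DESeq2 1.42.0, other scaling and gene filters, other clusterings and stages, a looser cell filter, and leaving out each library. Depth limits genes with few UMIs, and UMI numbers cover counting error only.

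Values in every library are given for the member of highest myotube-like CPM in each role and the first and last 6 in onset. They are also given for the 6 with the smallest p between KO and WT in myogenic-like cells. Up to 6 called in smooth muscle or pericyte-like cells are given too. The exceptions are *Mybpc2*, *Myot*, *Csrp3*, *Ckm* and *Ldb3*, for which only means or log2 fold changes are given. *Actc1*, *Neb*, *Unc45b*, *Nrap* in macrophage-like cells, *Tnni2* in chondrocyte-like cells and the remaining genes were named after their values were seen. Promoters and motif counts are from RefSeq (GRCm38.p6).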

Additional observations from a re-analysis of the deposited data

Results flagged for a closer look

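The members' UMIs outside the cell filter were higher in KO than in WT. Over all deposited barcodes the members took 2075 and 1969 CPM in WT and 2927 and 2693 in KO, a ratio of 1.39. Over kept cells the values were 1781 and 1471 against 1888 and 1989, a ratio of 1.19, and over myogenic-like cells the ratio was 1.08 with overlapping libraries. Myogenic-like cells were 17.4% and 16.1% of kept cells in WT and 20.7% and 18.2% in KO. The part of this cell mix in the sums was not tested. In the large member-rich barcodes over the upper limits, which the comparisons of KO with WT leave out, members took 223 and 476 UMIs per 1000000 deposited UMIs of the library in WT and 953 and 611 in KO, a ratio of 2.24. Those barcodes numbered 7 and 14 in WT and 17 and 21 in KO. Each of these differences except that of myogenic-like cells had an exact two-sided permutation p = 0.333, the smallest that 4 libraries allow. The small member-rich barcodes numbered 63 and 51 in WT and 60 and 75 in KO, which overlapped (exact permutation p = 0.667). Whether each of these barcodes holds 1 cell or several was not tested.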

How the results depend on the processing

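Of the results that answer a comparison, 198 values under alternatives stayed within 1.5 times, or within the spread, of the value reported and 38 did not. With 2 libraries per group, most that moved left out 1 library, with the lone library taken to vary like the other group. Members called between KO and WT without 1 library ranged from 0 to 5 in progenitor-like, 0 to 1 in cycling, 0 to 3 in myoblast-like, 0 to 1 in myotube-like, 0 to 5 in FAP-like, 0 to 4 in tenocyte-like, 0 to 3 in smooth muscle or pericyte-like, 1 to 8 in endothelial-like, 0 to 2 in glial-like and 0 to 4 in macrophage-like cells. In myogenic-like cells the genes called ranged from 0 to 10 and the members' median from -0.0237 to 0.38. Members called higher than in FAP-like cells ranged from 0 to 2 in chondrocyte-like, 1 to 5 in macrophage-like and 0 to 2 in glial-like cells. *Csrp3* between myoblast-like and progenitor-like cells ranged from -0.24 to 0.73. With stages set from UMIs of single genes 1 member was called in myoblast-like cells. The score axis placed 39 members before the last bin and the 50% limit 10. In settings added after seeing the data, the KO median was 0.47 with member-rich barcodes added and 0.62 over all deposited barcodes. The causes were not tested.

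The labels do not say whether replicate numbers pair the libraries. The deviations of same-numbered libraries correlated at 0.0731, and 2 pairs are too few to decide it. With the replicate number as a block 36 genes were called in myogenic-like cells, of which 2 were members (*Tnni1* at 0.43 and *Tnnt2* at 0.29), and 1 member was called in myoblast-like cells. The block changed no other count of members by over 1.5 times. Few cells limit the myotube-like stage, and few UMIs limit *Xirp1*, *Mybpc2*, *Nrap* and *Actn3*.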
